A study of Homo sapiens with 3 samples.

Results

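The genes described here are 10 genes of epidermal growth factor (EGF) receptor signalling, measured after exposure to MTX in BEAS-2B, a cell line derived from human bronchial epithelium and immortalised. They are the ligands EREG, AREG, HBEGF and TGFA, the receptors EGFR, ERBB2 and ERBB3, and ERRFI1, SPRY2 and SPRY4, which act as brakes. The members are named genes, and every array probe with a single gene symbol among them and a value on at least 1 array was kept. This gave 14 probes of 9 genes out of 31615 probes and 14904 genes. AREG had no value, so it was not analysed here. On all 3 arrays, 6 probes of 5 genes had values (EREG, EGFR, ERBB2, ERRFI1 and SPRY2), 3 probes had values on 2 arrays and 5 probes on 1. The genes were picked with their log ratios in view, so these values are a description and no test is read from them.

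EGF receptor ligands are made as membrane-anchored precursors that metalloproteases release, and they bind receptor tyrosine kinases that pair up and signal through the RAS, ERK and PI3-kinase routes. In airway epithelium this system is known for its part in repair, growth and mucus production. Active receptors also induce their own inhibitors: ERRFI1 (also called MIG6) binds the receptor kinase domain, and Sprouty proteins dampen signalling from receptor tyrosine kinases to ERK.

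Total RNA of cells given MTX (Cy5) was compared with total RNA of cells given the vehicle DMSO (Cy3) on 3 whole-genome arrays. MTX was used at 0.144 µM, a concentration described as inhibiting by 20%, for 48 h after 24 h of incubation. Both arms are the same line, the labels name no other agent or genotype, and each array is 1 ratio of the same orientation with no exchange of dyes. A dye effect of a gene is therefore part of its value and cannot be told apart from MTX. All values are log ratios in deposited units, positive where RNA was higher with MTX. This direction is likely and not settled, since only the dye labels and the convention of dividing Cy5 by Cy3 point to it. Nothing states the base of the logarithm, so folds are stated on the base 10 and the base 2 reading. The arrays are not stated to come from separate cultures, so SDs and p-values reflect array-to-array spread alone, possibly technical. Because total RNA of a culture was measured, a change in the mix of cells and a change of RNA per cell cannot be told apart. Probes with values numbered 21224, 25272 and 25927 on arrays 1, 2 and 3. Across the 17569 probes with 3 values, arrays 1 and 2 correlated at r = 0.846, and array 3 correlated with them at 0.539 and 0.605. Precision is limited by the small number of arrays, and array ratios have no sequencing depth.

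The promoter windows of the 4 genes whose log ratios were above 0 on all 3 arrays are shown because these genes read in the same direction. A single sign on all 3 arrays is common, as 63.6% of all genes with 3 arrays had it. Each window holds the 250 bases before the annotated start (RefSeq, GRCh38.p14), read 5′ to 3′ on the gene's strand, and the most upstream start was taken for EGFR and SPRY2, which have several. Capitals mark matches on either strand to the AP-1 motif TGANTCA, the cyclic AMP response element (CRE) TGACGTCA, the GC box GGGCGG or the TATA box TATAAA.
EREG, chr4:74364895-74365144, plus strand: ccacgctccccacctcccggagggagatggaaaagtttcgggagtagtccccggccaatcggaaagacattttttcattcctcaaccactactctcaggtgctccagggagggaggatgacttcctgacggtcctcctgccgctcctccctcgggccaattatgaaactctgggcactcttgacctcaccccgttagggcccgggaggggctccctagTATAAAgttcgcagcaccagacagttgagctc
EGFR, chr7:55018767-55019016, plus strand: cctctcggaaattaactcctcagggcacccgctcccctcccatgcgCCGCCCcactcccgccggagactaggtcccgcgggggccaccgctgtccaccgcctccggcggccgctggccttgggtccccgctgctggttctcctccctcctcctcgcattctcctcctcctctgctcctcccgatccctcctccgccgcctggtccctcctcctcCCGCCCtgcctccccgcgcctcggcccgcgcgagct
ERRFI1, chr1:8026310-8026559, minus strand: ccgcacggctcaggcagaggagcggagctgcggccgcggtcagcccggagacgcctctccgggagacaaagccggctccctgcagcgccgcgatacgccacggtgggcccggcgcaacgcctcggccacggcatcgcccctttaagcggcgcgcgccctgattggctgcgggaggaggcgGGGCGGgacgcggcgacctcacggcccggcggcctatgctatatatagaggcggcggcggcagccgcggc
SPRY2, chr13:80341127-80341376, minus strand: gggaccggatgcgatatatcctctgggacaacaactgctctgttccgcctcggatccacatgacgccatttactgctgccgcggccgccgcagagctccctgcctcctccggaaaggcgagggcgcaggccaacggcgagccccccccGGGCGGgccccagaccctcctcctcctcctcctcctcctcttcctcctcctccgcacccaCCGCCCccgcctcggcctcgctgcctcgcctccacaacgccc

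EREG had a single TATA box match, whose first base lay 32 bases before the start, and no GC box. EGFR and SPRY2 had 2 GC box matches each and ERRFI1 had 1, and none of these 3 windows held the exact letters TATAAA. Looser forms of the TATA box were not searched, and the ERRFI1 window has a run of alternating T and A near its end. The windows are therefore not sorted here into those with and without a TATA box. Among all 35116 windows of this length, 10.7% held the TATA box, 42.6% the GC box, 6.57% the AP-1 motif and 1.65% the CRE. The GC content was 58.0% for EREG, which equals the median of all windows, and 73.6%, 75.2% and 70.4% for EGFR, ERRFI1 and SPRY2. The window of a further EGFR start, not printed, differed. It held 2 TATA box matches, 2 AP-1 matches and no GC box, with a GC content of 38.8%. Those of further SPRY2 starts held no match, with GC contents of 62.4% and 41.2%. Motif matches describe letters in these windows and are not binding sites. In the printed windows no matches overlapped. RefSeq windows were found for 9 of the 10 genes.

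EREG encodes epiregulin, a ligand that binds EGFR and ERBB4. Its first probe read 0.498, 0.409 and 0.532 on arrays 1, 2 and 3. All 3 arrays were high, with a mean of 0.480 ± 0.0635 (SD, n = 3), or 3.02-fold higher if the base is 10 and 1.39-fold if it is 2. This SD was above the median SD of all genes, 0.0426. EREG ranked 14th from the top of the 9394 genes with a probe valued on every array, or 14th from the bottom if the ratio runs the other way. A second EREG probe, annotated with the same transcript, had a value on array 2 alone and read -0.121 there. The probes thus differed by 0.530 on that array and pointed in opposite directions. Of 2330 transcripts with exactly 2 valued probes on array 2, the median difference was 0.103, and 26 (1.12%, EREG included) differed by at least as much. Which of the EREG probes tracks the transcript was not tested.

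The other ligands gave little. TGFA, the gene of transforming growth factor alpha, read -0.290 and -0.236 on arrays 1 and 2 and had no value on array 3. Its mean of -0.263 ± 0.0376 (SD, n = 2) is 1.83-fold lower on the base 10 reading and 1.20-fold on the base 2 reading. On both arrays where the 2 genes had values, TGFA lay below 0 and the first probe of EREG above it. HBEGF, the gene of heparin-binding EGF-like growth factor, had a value on array 3 alone, -0.0246. AREG, the gene of amphiregulin, is the gene next to EREG on chromosome 4, with its annotated start 79991 bases downstream on GRCh38.p14. Its window held a TATA box match 29 bases and a CRE match 65 bases before the start.

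**Figure D1:**
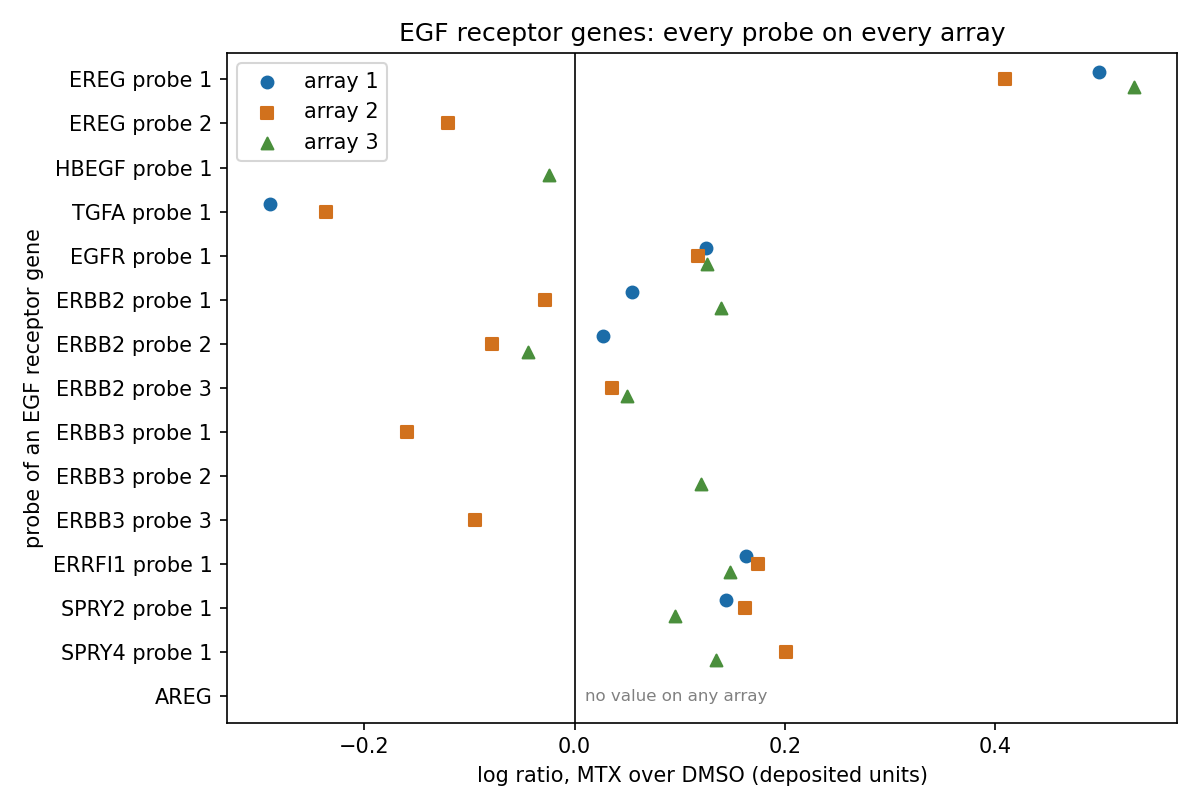
Log ratio of MTX over DMSO in deposited units (x axis) for each of the 14 probes of the described genes (y axis), with 1 symbol per array. The first EREG probe lies between 0.409 and 0.532, the second at -0.121 on array 2, and TGFA below 0 on its 2 arrays, while the EGFR points almost coincide.

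EGFR, the receptor shared by these ligands, read 0.124, 0.117 and 0.126 on the 3 arrays. The arrays were nearly equal, with a mean of 0.122 ± 0.00446 (SD, n = 3), 1.33-fold higher if base 10 and 1.09-fold if base 2. Its SD was smaller than that of all but 98 (1.04%) of the 9394 genes, against a median SD of 0.0426. Its mean moved by more than this SD with centred arrays, to 0.114, and after removal of a local trend, to 0.100.

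ERBB2 encodes the receptor that has no known ligand and pairs with the others. Its first probe read 0.0542, -0.0280 and 0.140, and its second, annotated with another transcript record, 0.0269, -0.0782 and -0.0446. The signs differed between arrays within each probe, and the gene mean over both was 0.0117 ± 0.0562 (SD, n = 3), smaller than its spread. One more probe, valued on arrays 2 and 3, read 0.0353 and 0.0497. ERBB3, the receptor with a weak kinase that needs a partner, had 3 probes with 1 value each. They read -0.159 and -0.0946 on array 2 and 0.120 on array 3, so that no direction is given.

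Of the brakes, ERRFI1 read 0.163, 0.175 and 0.148 on arrays 1 to 3. It was higher by a similar amount on each, with a mean of 0.162 ± 0.0134 (SD, n = 3), 1.45-fold if base 10 and 1.12-fold if base 2. SPRY2 read 0.143, 0.162 and 0.0950, with the lowest value on array 3. Its mean was 0.133 ± 0.0345 (SD, n = 3), 1.36-fold or 1.10-fold. SPRY4 had no value on array 1 and read 0.201 and 0.134 on arrays 2 and 3, a mean of 0.167 ± 0.0468 (SD, n = 2). The 3 brakes lay above 0 on every array that measured them. Of all genes with a probe valued on 3 arrays, 5971 (63.6%) had 1 sign on every array. Since the brakes were picked with their log ratios in view, nothing is read from their common sign.

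Among the genes with 3 arrays the order of the means was EREG, ERRFI1, SPRY2, EGFR and ERBB2. The gap between EREG and ERRFI1 was 0.318, and the lowest value of the first EREG probe lay above the highest value of every other gene, while the second EREG probe, at -0.121, did not. ERRFI1 and SPRY2 differed by 0.0286 and SPRY2 and EGFR by 0.0110, both less than the SD of SPRY2. This SD does not use the pairing of genes on the same array. ERRFI1 read above SPRY2 on each array, while SPRY2 read above EGFR on arrays 1 and 2 and below it on array 3. Differences between genes within arrays were not tested. EGFR lay 0.111 above ERBB2, beyond the 0.0562 SD of ERBB2. In the fit over all genes (limma, adjusted p under 0.05), 4 of the 5 passed as higher and 0 as lower. In the same fit 29.0% of all genes passed, 16.6% as higher and 12.4% as lower. With probes valued on at least 2 arrays, 4 of 7 passed as higher and 1, TGFA, as lower, where 8.16% and 5.75% of 11741 genes passed in these directions. Since the genes were chosen on this comparison, nothing is read from their count. The 5 means had a median of 0.133, and the median over all genes was 0.00742. Without array 1 or array 2 no gene of the 9394 passed (2938 and 2387 at an unadjusted p under 0.05), nor did these 5 genes. Without array 3, 4287 of all genes and 4 of the 5 passed.

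**Figure D2:**
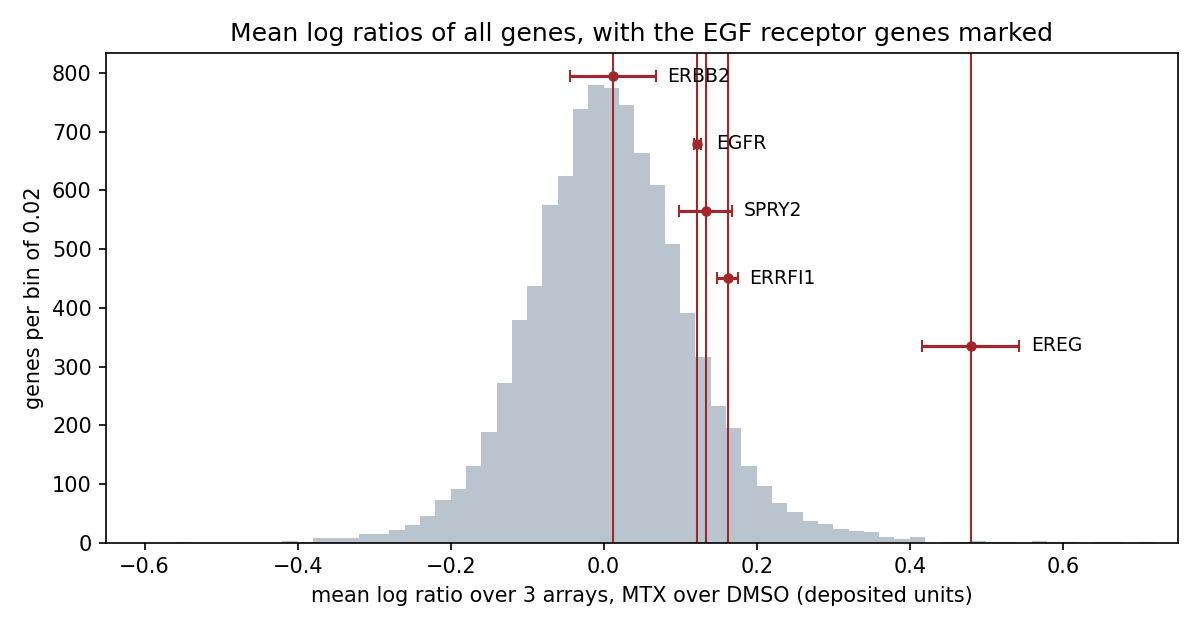
Histogram of the mean log ratios over 3 arrays (x axis, deposited units) of the 9394 genes (y axis, genes per bin of 0.02), with the described genes as lines, points and horizontal bars of 1 SD (n = 3). EREG stands in the upper tail at 0.480, ERRFI1, SPRY2 and EGFR lie between 0.122 and 0.162, and ERBB2 lies near 0.

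The remaining genes of the pathway were grouped by role. Over the lists for shedding, adaptors and cascade, other brakes, receptor traffic and ERK response, 51 genes had 3 arrays. Of these, 18 rose and 3 fell (41.2%, against 29.0% of all genes). Over all genes 16.6% passed as higher and 12.4% as lower, the shares to set beside each list below. With probes valued on at least 2 arrays, 13 of 60 pathway genes passed, 12 as higher and 1 as lower, where 13.9% of 11741 genes passed. These 13 are among the 21.

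Of 8 other ligands and receptors 6 had a value, and none had a probe valued on all 3 arrays, so none entered the fit over 9394 genes. In the fit with probes valued on at least 2 arrays, EGF (limma adjusted p = 0.0676), ERBB4 (0.10) and NRG1 (0.472) entered and did not pass. EGF itself read -0.177 and -0.364 on arrays 1 and 2. ERBB4, the second receptor of epiregulin, read -0.102 and -0.111 on arrays 2 and 3 with a probe and 0.0392 on array 3 with another. Betacellulin (BTC), encoded beside AREG, read 0.101 on array 3. The neuregulin gene NRG1 had -0.0357 and -0.0311 on arrays 1 and 2 with a probe, and 0.207 and 0.0627 on array 3 with others. NRG2 and NRG4 read 0.0714 and -0.117 on array 3. These values give no common direction.

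Genes of ligand shedding went both ways. Of 8 tested, 2 rose, 1 fell and 5 did not pass, with a median of 0.0675. RHBDF2, which encodes the rhomboid-like protein iRhom2 needed for maturation of the protease ADAM17, read 0.232, 0.0938 and 0.138, a mean of 0.154 ± 0.0707 (SD, n = 3, limma adjusted p = 0.0303). ADAM19, a metalloprotease, rose by 0.140 ± 0.0286 (adjusted p = 0.0173). ADAM10, a sheddase of several EGF receptor ligands, fell by 0.101 to a mean of -0.101 ± 0.0258 (adjusted p = 0.0307). ADAM17, the main sheddase of the ligand precursors described here, averaged 0.0163 ± 0.0176 and did not pass (adjusted p = 0.573). Its 2 probes disagreed, with means of 0.114 and -0.0817, and the first alone passed (adjusted p = 0.0254). With probes on at least 2 arrays, RHBDF2 and ADAM10 had adjusted p-values of 0.0546 and 0.0573.

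Of the adaptors and the kinase cascade, 12 of 21 genes had a value and 10 were tested: 3 rose, 0 fell and 7 did not pass. PIK3R1, the regulatory subunit of PI3-kinase, rose by 0.167 ± 0.0568 (SD, n = 3, limma adjusted p = 0.0205). MAP2K1, the kinase MEK1 that activates ERK, rose by 0.0892 ± 0.0289 (adjusted p = 0.0429). PTPN11, the phosphatase SHP2 that promotes RAS signalling, averaged 0.130 ± 0.0282 (adjusted p = 0.0199) over probes with means of 0.200 and 0.0602. Another PTPN11 probe read -0.262 and -0.138 on arrays 2 and 3, opposite to them. When probes on 2 arrays entered, the adjusted p-values of PIK3R1, MAP2K1 and PTPN11 were 0.0816, 0.0740 and 0.341. MAP2K1 also missed with centred arrays (0.0537), scaled arrays (0.0735) and first probes (0.05003), and PTPN11 with first probes (0.0983). The adaptor genes GRB2 and SHC1 averaged -0.0106 and -0.0126 and the exchange factor SOS1 0.00914, none of which passed. Another SHC1 probe read 0.0570 and 0.106 on arrays 1 and 3, and with probes on at least 2 arrays the SHC1 mean was 0.0138. The list's median was 0.0174.

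Further brakes of receptor tyrosine kinase signalling had 7 genes higher, 0 lower and 5 not passed of 12 tested, with a median of 0.113. Over all genes 16.6% passed as higher and 12.4% as lower. The list was chosen with earlier results known, so its count is a description. SPRY1, the Sprouty gene related to SPRY2 and SPRY4, read 0.264, 0.246 and 0.216, a rise of 0.242 ± 0.0246 (SD, n = 3, limma adjusted p = 0.00971), 1.75-fold if base 10 and 1.18-fold if base 2. DUSP5, a phosphatase of ERK, rose by 0.138 ± 0.0207 (adjusted p = 0.0159). SOCS4, a suppressor of cytokine signalling that acts on EGFR, rose by 0.169 ± 0.0518 (adjusted p = 0.0181), with probe means of 0.0872 and 0.251, the first of which alone did not pass (adjusted p = 0.174). The 4 further genes that passed were named after their values were seen. They are DUSP6, another ERK phosphatase (0.201 ± 0.0779, adjusted p = 0.0208), SOCS5 (0.125 ± 0.0189, adjusted p = 0.0186), SPRY3 (0.123 ± 0.0352, adjusted p = 0.0242) and NF1, a RAS GTPase-activating protein (0.0855 ± 0.0240, adjusted p = 0.0434). A second SPRY3 probe, valued on array 1 alone, read -0.591 where the first read 0.0933. Second probes of SOCS5 and NF1, valued on array 3 alone, read -0.0382 and -0.0975 where the first read 0.108 and 0.112. NF1 had an adjusted p of 0.0752 with probes on at least 2 arrays, 0.0553 with centred arrays, 0.0759 with scaled arrays and 0.0512 with first probes. LRIG1 and LRIG3, whose proteins bind ErbB receptors, were uneven: LRIG1 read 0.209, 0.185 and -0.0873 and LRIG3 -0.0781, -0.0874 and 0.169. Array 3 had the opposite sign to the other arrays for both. Neither passed, except LRIG1 with array weights, at a mean of 0.171 (adjusted p = 0.00788), where 5801 of all 9394 genes passed.

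Receptor traffic, the endosomal sorting of bound receptors, had 2 higher, 0 lower and 8 not passed of 10 tested, with a median of 0.0495. RAB5A, a GTPase of early endosomes, rose by 0.141 ± 0.0152 (SD, n = 3, limma adjusted p = 0.0148). STAM, a subunit of the sorting complex that recognises ubiquitinated receptors, rose by 0.160 ± 0.0481 (adjusted p = 0.0188). USP8, a deubiquitinase of EGFR, averaged 0.0796 ± 0.0289 and did not pass (adjusted p = 0.0560), except with array weights (0.0192), where 5801 of all 9394 genes passed.

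Genes known to respond to ERK included 4 that rose, 2 that fell and 5 that did not pass, of 11 tested, with a median of 0.0571. EGR1, an immediate-early transcription factor, read 0.295, 0.399 and 0.325, a rise of 0.340 ± 0.0536 (SD, n = 3, limma adjusted p = 0.00926). JUNB, a subunit of AP-1, rose by 0.218 ± 0.0556 (adjusted p = 0.0127). Cyclin D1 (CCND1) rose by 0.166 ± 0.0424 (adjusted p = 0.0159) and the immediate-early gene IER2 by 0.116 ± 0.00875 (adjusted p = 0.0198). MYC fell to -0.184 ± 0.0429 (adjusted p = 0.0137) and SRF, the factor that binds serum response elements, to -0.0982 ± 0.0250 (adjusted p = 0.0325). With probes on at least 2 arrays CCND1 and SRF had adjusted p-values of 0.0626 and 0.0600, and after removal of a local trend SRF had 0.0669. ETV5 and PHLDA1, at 0.0157 and 0.0571, did not pass, except PHLDA1 with array weights (adjusted p = 0.00835), where 5801 of all 9394 genes passed. Another ETV5 probe read -0.000573 and -0.208 on arrays 1 and 3. With probes on at least 2 arrays the ETV5 mean was -0.0258.

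**Figure D3:**
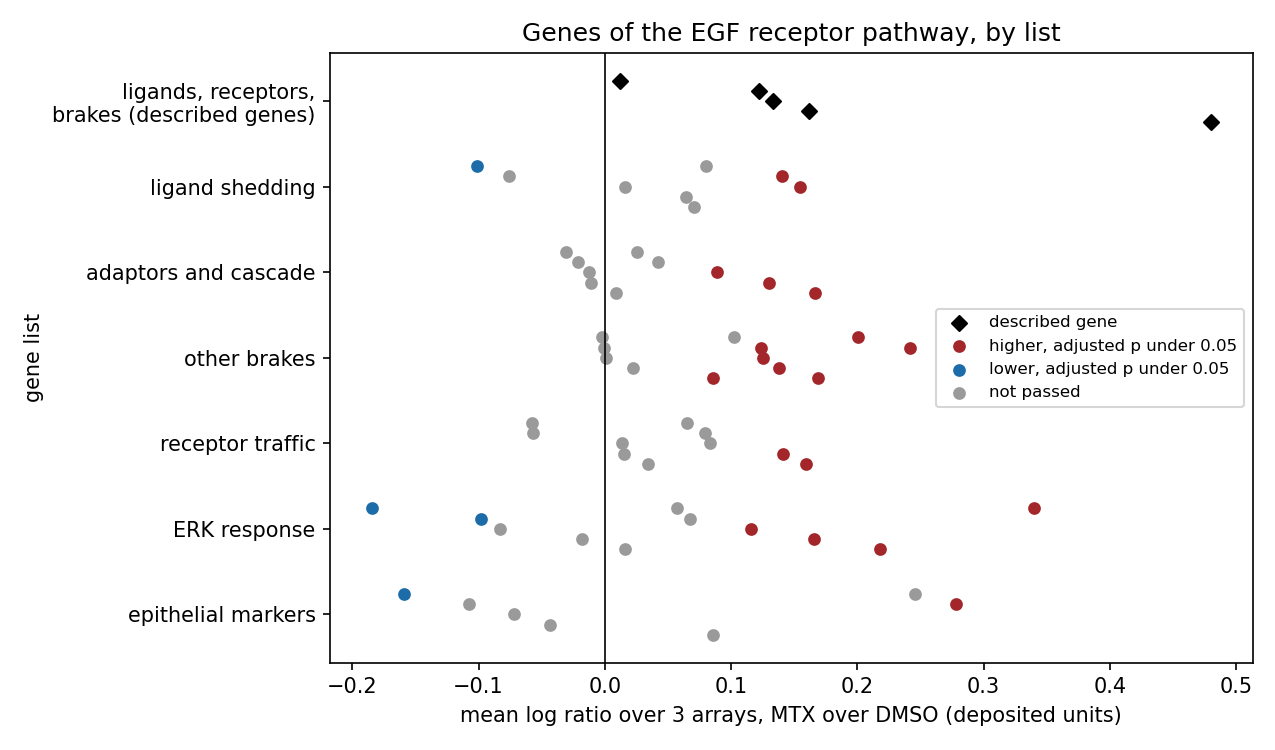
Mean log ratio over 3 arrays (x axis, deposited units) of each gene with 3 arrays, by list (y axis, points spread vertically for legibility). Coloured points passed the limma fit over all genes as higher (red) or lower (blue), grey points did not, and black diamonds are the described genes. Of the 12 other brakes 7 are red and none is blue, where 16.6% of all genes passed as higher and 12.4% as lower.

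EREG was set against its chromosomal neighbourhood, which the choice of genes did not use except for AREG. Among the 10 protein-coding genes on each side, 16 had a value and 8 were tested: 2 rose, 2 fell and 4 did not pass. Over all genes of this fit 16.6% passed as higher and 12.4% as lower. CXCL1, a neutrophil chemokine, rose by 0.245 ± 0.0402 (SD, n = 3, limma adjusted p = 0.00994), and RCHY1, a ubiquitin ligase gene, by 0.155 ± 0.0678 (adjusted p = 0.0285). The chemokine genes CXCL5 and CXCL3 fell to -0.140 ± 0.0719 and -0.109 ± 0.0489 (adjusted p = 0.0386 and 0.0415). CXCL2 averaged 0.130 ± 0.0867 without passing (adjusted p = 0.0612). With probes on at least 2 arrays, RCHY1, CXCL5 and CXCL3 had adjusted p-values of 0.0525, 0.0656 and 0.0778. With scaled arrays CXCL5 and CXCL3 had 0.0519 and 0.0641, and after removal of a local trend CXCL3 averaged -0.0621 (adjusted p = 0.166). EPGN and AREG, which flank EREG, had no value. The neighbourhood held genes of both directions in the fit over all genes. Of the genes that passed there, CXCL1 alone also passed with probes on at least 2 arrays (limma adjusted p = 0.0261).

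**Figure D4:**
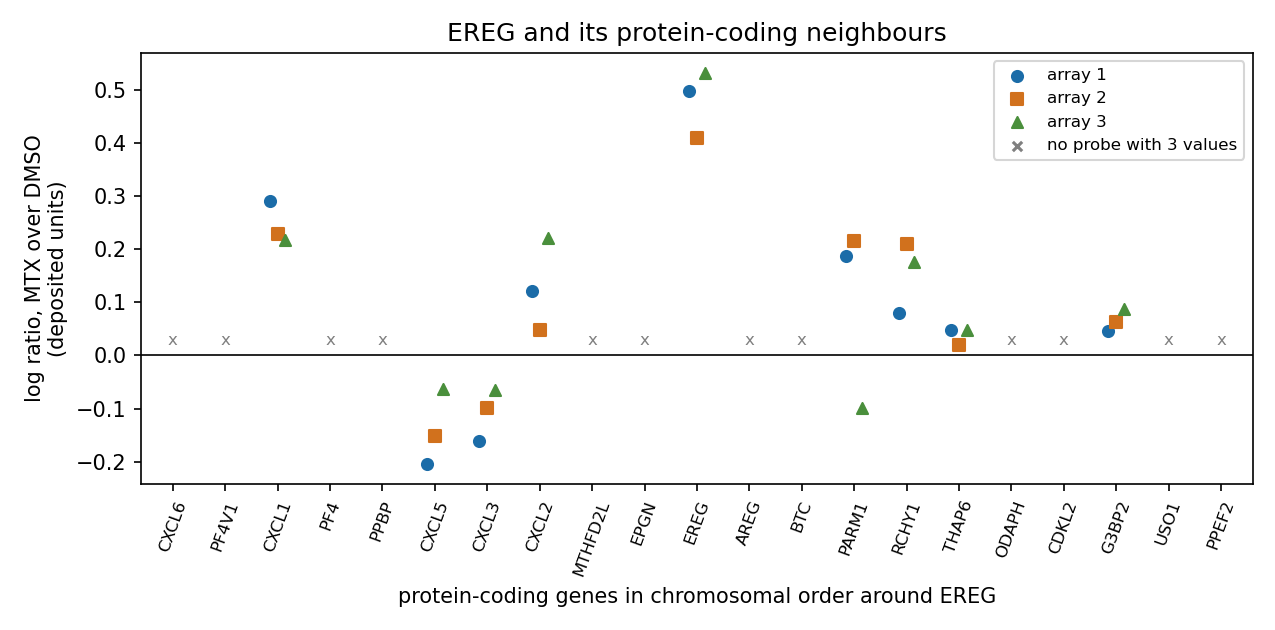
Log ratios on the 3 arrays (y axis, deposited units) of EREG and the 10 protein-coding genes on each side in chromosomal order (x axis, not to distance). Grey crosses, placed near 0 for visibility, mark genes without a probe valued on 3 arrays. EREG lies highest, CXCL1 between 0.216 and 0.291, and CXCL5 and CXCL3 below 0.

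The genes most like EREG were sought by Euclidean distance over the 3 arrays, leaving out placeholder symbols (LOC, FLJ, KIAA and chromosome open reading frame names). They were HSPA4L (distance 0.123), E2F8 (0.132), FAM83D (0.142), ARID5B (0.152) and FAS (0.157). HSPA4L, a heat shock protein, read 0.436, 0.346 and 0.447, with its lowest value on array 2 like EREG, FAM83D and FAS. This likeness covers 3 values a gene.

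The cell type could not be checked, as ratios give no level. Of 10 epithelial and mesenchymal markers 7 were tested, with 1 higher, 1 lower and 5 not passed. EPCAM, an epithelial adhesion molecule, rose by 0.278 ± 0.0982 (SD, n = 3, limma adjusted p = 0.0158). KRT18 fell to -0.159 ± 0.0328 (adjusted p = 0.0150), although its other probes, valued on fewer arrays, read between 0.00277 and 0.0652, and its adjusted p was 0.134 with probes on at least 2 arrays. KRT19, at -0.107 ± 0.0577, did not pass (adjusted p = 0.0521), except with centred arrays (0.0431), with array weights (0.00759) and after removal of a local trend (0.0334). The gene values of the keratins KRT7 and KRT8, named after their values were seen, lay above 0 on every array. They averaged 0.246 ± 0.209 and 0.0861 ± 0.0401 and did not pass (limma adjusted p = 0.0796 and 0.0589). KRT8 passed with first probes (0.0402) and with array weights (0.0257), where 5801 of all 9394 genes passed. Its 2 probes disagreed, reading 0.1745, 0.131 and 0.0650 against -0.0158, -0.0318 and 0.193 on arrays 1, 2 and 3. The keratins thus give no common direction. Of the mesenchymal markers, CDH2 averaged -0.0721 ± 0.0643 and VIM -0.0433 ± 0.0251, and neither passed (limma adjusted p = 0.140 and 0.187). CDH2 passed as lower with array weights (adjusted p = 0.0149) and VIM with first probes (adjusted p = 0.03535). The VIM probes disagreed, with means of 0.04725 and -0.1338. The part of these markers in the values of the EGF receptor genes was not tested.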

How the data were processed

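Total RNA was compared on dual-colour arrays, 1 log ratio per probe and array. Per the series' design text, the authors subtracted the local median background in GenePix and applied LOWESS normalisation. The deposited values are log ratios, read as log10 for a working unit. Their base and the filter behind empty cells are not given in the sources used here. Array medians were 0.00137, 0.00222 and 0.00194, so centring is near 0. The scale and the direction could not be set against scanner values.

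Probes were named from the platform annotation: 22472 had 1 symbol, 80 several and 9063 none. Entrez identifiers of 22444 were found in the RefSeq table, and 0 symbols changed. The 13027 probes with 1 symbol and 3 values were averaged per gene and array. With limma 3.58.1 under R 4.3.3, a two-sided moderated test (lmFit, eBayes) asked whether each gene mean differs from 0, and p-values were adjusted over 9394 genes by Benjamini-Hochberg, with 0.05 as the threshold. The same fit ran over 17569 single probes. The scripts were tested on simulated data.

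Members, lists and tests were chosen with earlier results of these data known. Besides the described genes, the 3 genes of each list with the smallest p were named, with every passing gene where a list had 5 or fewer in a direction. The 10 neighbours on each side of EREG and the 5 genes nearest to it, placeholder symbols left out, were added. Outside this rule, ADAM17, GRB2, SHC1, SOS1, LRIG1, LRIG3, ETV5, PHLDA1, VIM and CDH2 were also named. So were the genes said above to be named after their values were seen. Alternatives covered centring, scaling, probe choice, array weights, a robust spread, a local trend and each array left out.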

Additional observations from a re-analysis of the deposited data

How the results depend on the processing

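Over 10 alternatives, EREG, EGFR, ERRFI1 and SPRY2 stayed above 0, ranging from 0.430 to 0.515, 0.100 to 0.125, 0.154 to 0.171 and 0.119 to 0.155. ERBB2 ranged from -0.0325 to 0.0553. Of these 50 values 48 moved by less than 1 SD. The other 2 are of EGFR, at 0.114 with centred arrays and 0.100 without the local trend. Part of this was fixed in advance. The robust spread leaves every mean unchanged. First probes and probes on at least 2 arrays repeat the values of EREG, EGFR, ERRFI1 and SPRY2. Leaving out an array cannot bring a gene below 0 when all its arrays lie above it. When probes on at least 2 arrays entered, 1633 genes passed over all and 13 of the pathway, and with array weights, which favoured array 2, 5801 and 35. With 1 array left out, from 0 to 4287 genes passed over all, 0 to 4 of the described genes, 0 to 29 of the pathway (21 with all arrays), and 0 to 8250 single probes (5350 with all arrays). Counts under the other alternatives stayed within 1.5 times. No paired analysis was possible because the arrays form 1 group of ratios. With ratios alone, neither the background correction nor a dim-probe filter could be changed.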
